A study of Mus musculus with 32 samples.

Results

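A set of 3229 sites of open chromatin appeared repeatedly when CTCF was knocked down during the reprogramming of mouse fibroblasts. Accessibility was measured by ATAC-seq, in which a transposase inserts adapters where DNA is accessible. The peak lists of the 5 cell populations with CTCF shRNA and of their 5 control shRNA partners were pooled, and overlapping intervals were merged into 267322 sites. A site was called open in a list when it overlapped an interval of that list by at least 1 bp. It was gained in a pair when it was open with CTCF shRNA and not open in the control of the same population. The sites described here were gained in 3 or more of the 5 pairs. They make up 1.21% of all sites. By number of pairs, 3073 were gained in 3, 154 in 4 and 2 in all 5. The opposite rule, lost in 3 or more pairs, gave 547 sites, or 0.205%. The 2 counts have unlike bases: in a single pair 2.81% to 22.0% of all sites were gained and 2.56% to 5.97% lost. The sites were chosen by presence and absence in these 10 lists, so their values there are a description without a test.

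All cells came from mouse embryonic fibroblasts. The labels' protocols name OG2 fibroblasts, which carry a GFP reporter of the pluripotency gene Pou5f1. They were reprogrammed with the OSKM factors Oct4, Sox2, Klf4 and c-Myc. The 5 pairs set retroviral CTCF shRNA against control shRNA (shLuci) at day 0 (D0), in Thy1+ cells (days 3, 6 and 9), SSEA1-Thy1- cells (days 6 and 9), SSEA1+ cells (days 6 and 9) and GFP+ cells (day 12). Each Thy1+ list stood for 3 samples and every other list for 2. Per the series' design text, the sorted cells came from a doxycycline-inducible lentiviral OSKM system. A further 5 lists took no part in choosing the sites: 3 of unsorted day 10 cells with OSKM and a control, with CTCF overexpression, or with CTCF overexpression and Smarca5 knockdown, and 2 of unsorted day 12 cells with control or Smarca5 shRNA. Each group has 1 deposited list, so no comparison between conditions has a replicate check. Bulk lists cannot tell more cells with an open site from a more open site per cell.

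CTCF is a zinc finger protein that binds DNA and, with cohesin, anchors chromatin loops and marks borders between domains. Smarca5 is the ATPase of ISWI remodelling complexes, which space nucleosomes and help CTCF to bind. During reprogramming, fibroblasts lose the surface protein Thy1, then gain the carbohydrate SSEA1, and a few switch on the Pou5f1 reporter. Enhancers of fibroblast genes close along the way and those of pluripotency genes open. AP-1, a dimer of Fos and Jun proteins, binds many of the enhancers that are open in fibroblasts.

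The SSEA1+ list with CTCF shRNA stood closer to early cells than its control did. Of the sites gained in that pair, 81.6% were open in the day 0 control, against 44.3% in SSEA1-Thy1- and 48.6% in GFP+ cells. Within 10 kb of 7 fibroblast marker genes (Prrx1, Twist1, Col1a1, Col1a2, Col3a1, Thy1 and Pdgfrb) the SSEA1+ lists held 36 open sites in the control and 70 with CTCF shRNA, beside 65 in the day 0 control and 76 in the Thy1+ control. All 7 of these genes had a peak at a gene end in both SSEA1+ lists. Around 6 pluripotency markers (Pou5f1, Nanog, Sox2, Esrrb, Zfp42 and Dppa5a) the same lists held 41 and 39 sites. The part of differing cell composition in the gained sites was not tested. In all 5 pairs the list with CTCF shRNA was the longer, from 157039 against 156377 intervals at day 0 to 186665 against 138422 in SSEA1+ cells. The number of reads behind a list is unknown. By construction, leaving out a pair could not raise the number of sites gained in 3 or more of the other 4. The numbers were 602 without SSEA1-Thy1-, 790 without SSEA1+, 1437 without Thy1+, 1491 without GFP+ and 2606 without D0.

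The sequences that the files allow to be shown are promoters. Of the 3097 repeatedly gained sites on chromosomes that the RefSeq promoter table of GRCm38.p6 covers, 47 (1.52%, 95% Clopper-Pearson interval 1.12 to 2.01) touched a window from 250 bases before to 50 bases after an annotated start. The interval, like all those below, covers counting error over sites only. Among all sites the share was 5.16%. The 49 windows belonged to 24 protein-coding genes and 25 others. The following 4 windows are those of protein-coding genes that hold an AP-1 site, TGANTCA on either strand, in the 250 bases before the start. Capitals mark that match, and in Shroom4 also a TEAD site, CATTCC. Each sequence is from RefSeq (GRCm38.p6) and runs 5′ to 3′ on the gene's strand up to the base before the start.
Hrh1, chr6:114458272-114458521, plus strand: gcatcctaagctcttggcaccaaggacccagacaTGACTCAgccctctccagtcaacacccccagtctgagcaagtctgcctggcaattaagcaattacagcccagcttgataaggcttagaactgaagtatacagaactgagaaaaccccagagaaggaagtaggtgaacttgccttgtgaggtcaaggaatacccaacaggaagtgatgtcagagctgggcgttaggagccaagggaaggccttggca
Hal, chr10:93488518-93488767, plus strand: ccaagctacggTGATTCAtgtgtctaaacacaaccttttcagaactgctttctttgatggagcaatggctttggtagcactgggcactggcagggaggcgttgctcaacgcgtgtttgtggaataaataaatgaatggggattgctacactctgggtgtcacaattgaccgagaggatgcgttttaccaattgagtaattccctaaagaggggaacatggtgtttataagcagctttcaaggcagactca
Olfr222, chr11:59571739-59571988, minus strand: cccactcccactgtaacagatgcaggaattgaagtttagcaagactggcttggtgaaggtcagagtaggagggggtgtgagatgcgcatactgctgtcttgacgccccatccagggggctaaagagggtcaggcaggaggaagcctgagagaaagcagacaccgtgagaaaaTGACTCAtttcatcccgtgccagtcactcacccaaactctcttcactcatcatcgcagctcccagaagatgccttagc
Shroom4, chrX:6415492-6415741, plus strand: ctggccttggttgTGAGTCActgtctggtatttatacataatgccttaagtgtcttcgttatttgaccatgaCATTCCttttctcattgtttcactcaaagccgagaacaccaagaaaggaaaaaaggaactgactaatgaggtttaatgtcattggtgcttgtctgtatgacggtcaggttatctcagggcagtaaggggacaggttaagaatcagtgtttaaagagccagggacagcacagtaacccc

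The AP-1 match began 216 bases before the start of Hrh1 (a histamine receptor), 239 before Hal (histidine ammonia-lyase), 78 before Olfr222 (an odorant receptor) and 237 before Shroom4 (a regulator of the actin cytoskeleton), and all 4 matches lay inside the gained site. These 4 sites had the same course: open in the day 0 and Thy1+ control lists, absent from the 3 later control lists, and present in the SSEA1-Thy1-, SSEA1+ and GFP+ lists with CTCF shRNA. Over all 49 windows, 8 held an AP-1 site (16.3%, 7.32 to 29.7). The share was 6.75% of all 32851 windows and 5.86% of windows touching any site. It was 15.1% (13.5 to 16.8) of windows touching other sites that were open in 3 to 7 of the 10 lists, as the repeatedly gained sites were. Windows whose gained site was open in the day 0 control held the motif in 6 of 19 cases, and the others in 2 of 30. For comparison, it occurred in 24.3% of windows touching other sites that were open in the day 0 and Thy1+ controls and in no later control. The AP-1 share is therefore near that of sites with a like history, and is not particular to the repeatedly gained sites.

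The next 3 windows lay wholly inside a gained site and hold none of the 5 motifs searched, as did those of Gbgt1 and Rbms3 among protein-coding genes. Ltbp3, which encodes a binding protein of latent TGF-beta, was the only protein-coding gene whose end was covered by a site gained in 4 pairs. Tle4, a corepressor of the Groucho family, and Acsbg1, an acyl-CoA synthetase, are shown because their sites were open in none of the 5 control lists and in all 3 day 10 lists. They were chosen after their values were seen.
Ltbp3, chr19:5740650-5740899, plus strand: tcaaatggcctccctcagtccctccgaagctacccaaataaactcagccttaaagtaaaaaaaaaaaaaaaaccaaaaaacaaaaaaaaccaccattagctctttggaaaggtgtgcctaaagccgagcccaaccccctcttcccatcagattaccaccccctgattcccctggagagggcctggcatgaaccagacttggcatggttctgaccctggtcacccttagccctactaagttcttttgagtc
Tle4, chr19:14597214-14597463, minus strand: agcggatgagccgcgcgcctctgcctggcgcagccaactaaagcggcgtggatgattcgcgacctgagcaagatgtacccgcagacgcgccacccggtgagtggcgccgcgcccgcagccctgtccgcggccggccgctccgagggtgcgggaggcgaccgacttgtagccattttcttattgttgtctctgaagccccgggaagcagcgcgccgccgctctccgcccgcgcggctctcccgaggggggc
Acsbg1, chr9:54661886-54662135, minus strand: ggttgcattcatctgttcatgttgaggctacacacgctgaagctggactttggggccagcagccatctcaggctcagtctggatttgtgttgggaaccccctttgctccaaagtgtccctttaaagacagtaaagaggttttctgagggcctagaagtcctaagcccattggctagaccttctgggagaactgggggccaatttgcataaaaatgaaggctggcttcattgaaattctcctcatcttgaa

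The Tle4 window has 35 CpG dinucleotides and 70.8% G+C, whereas Ltbp3 has 2 CpG and 47.2% and Acsbg1 has 1 CpG and 48.4%. The last 2 are nearer the rest: the 49 windows had a median of 4 CpG and 50.4% G+C. Windows touching any site had 15 CpG and 59.6%, and windows touching other sites in 3 to 7 lists had 4 CpG and 49.6%. A core of the CTCF motif occurred in 2 of the 49 windows (4.08%, 0.498 to 14.0) and in 2.07% of all windows. The TEAD site was in 5 (10.2%; 12.6% of all windows), the Klf site GGGTGTGG in 2 (4.08%; 3.20%) and the Oct-Sox composite in none (up to 7.25%; 0.0335%). Both strands were searched, and a match is a description of letters, not a binding site.

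The 5 pairs contributed unequally. With background shares of all sites in parentheses, the repeatedly gained sites included 708 gained at day 0 (2.81% of all sites were gained there). Thy1+ cells gave 1913 (13.1%), SSEA1-Thy1- cells 2777 (9.66%), SSEA1+ cells 2583 (22.0%) and GFP+ cells 1864 (9.41%). As shares of the 3229 these were 21.9%, 59.2%, 86.0%, 80.0% and 57.7%. SSEA1-Thy1- cells, the population between the Thy1+ and SSEA1+ gates, took part most often. Of the sites gained in a pair, the repeatedly gained ones were 10.8% in SSEA1-Thy1- and 4.40% in SSEA1+ cells, the highest and lowest of the 5. Outside the pairs of gain, 424 sites were lost in 1 pair and 22 in 2, while 2783 were lost in none. By pair these losses numbered 80 at D0 (2.56% of all sites were lost there), and Thy1+ cells had 124 (5.97%), SSEA1-Thy1- cells 60 (4.94%), SSEA1+ cells 144 (4.06%) and GFP+ cells 60 (4.87%).

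**Figure D1:**
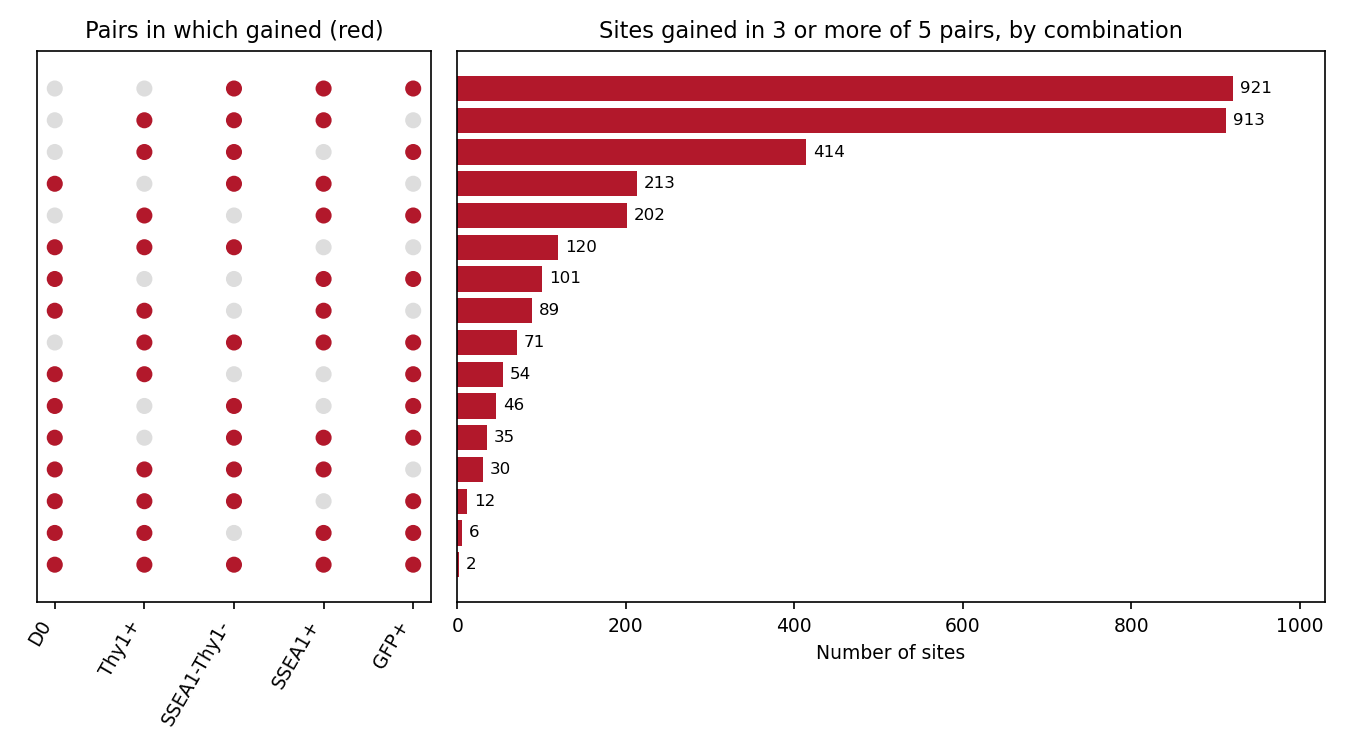
Repeatedly gained sites by the combination of pairs in which they were gained; red dots mark the pairs and bars the number of sites. The 3 longest bars, 921, 913 and 414 sites, all include SSEA1-Thy1- cells, and only 2 sites were gained in all 5 pairs.

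The most frequent combination, 921 sites gained in SSEA1-Thy1-, SSEA1+ and GFP+ cells, consisted mainly of sites that were open early. In the control lists 81.2% of them were open at day 0 and 94.1% in Thy1+ cells, and by the rule none was open in the 3 later controls. Among all sites 57.6% were open in the day 0 control and 72.7% in the Thy1+ control. The other combinations without a Thy1+ gain were at 93.5% to 97.1% in the Thy1+ control. The 94.1% is therefore not particular to this combination. With CTCF shRNA they were open at day 0 in 78.3% and in Thy1+ cells in 86.4%. The second combination, 913 sites gained in Thy1+, SSEA1-Thy1- and SSEA1+ cells, had a different course. Only 15.4% were open in the day 0 control and 25.6% in the GFP+ control, and with CTCF shRNA the values were 12.3% and 22.2%. By the rule none of the 913 was open in the Thy1+ control, a list that held 85.3% of the day 0 control sites. Their low day 0 share is therefore in part built in. The third, 414 sites gained in Thy1+, SSEA1-Thy1- and GFP+ cells, was open in 73.2% of cases in the SSEA1+ control and in 45.9% in the SSEA1+ list with CTCF shRNA.

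**Figure D2:**
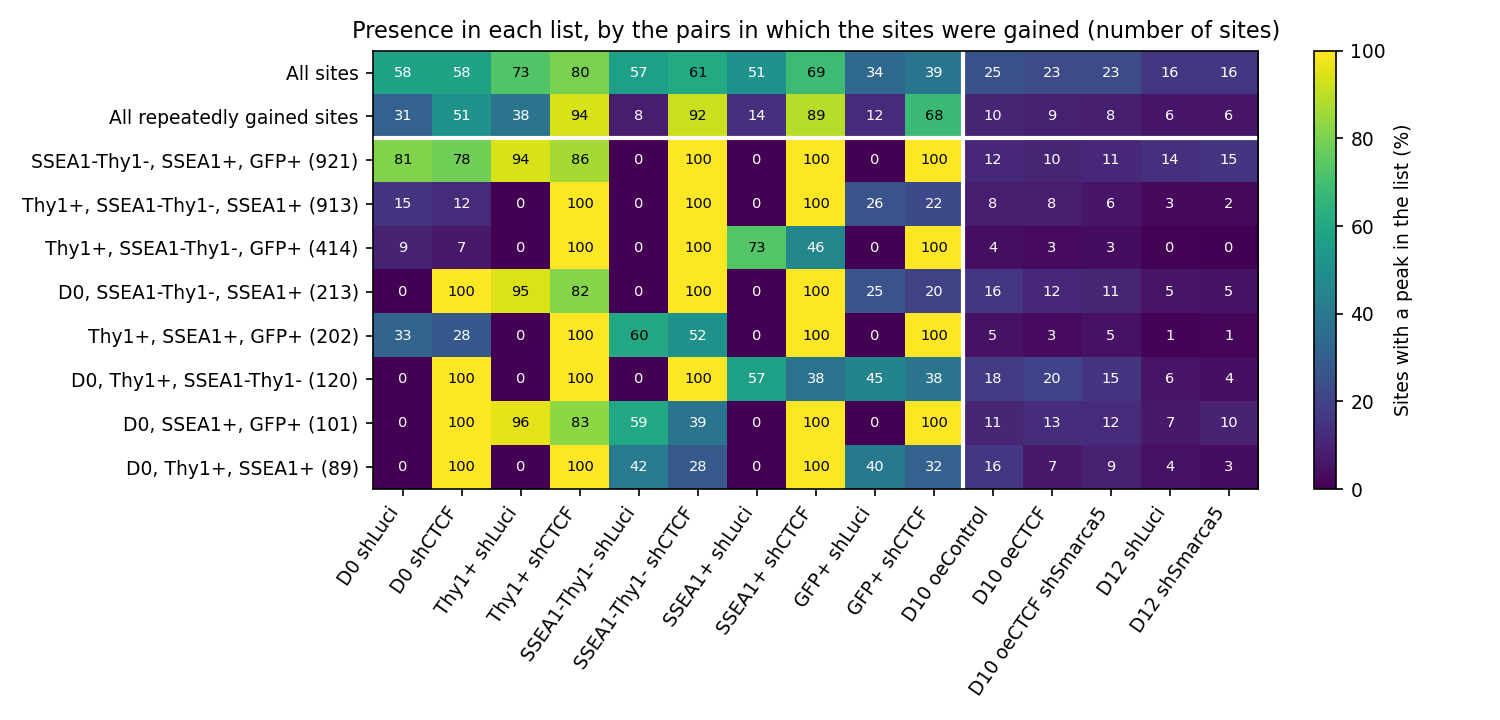
Percent of sites with a peak in each of the 15 lists (columns), for all sites, all repeatedly gained sites and the 8 most frequent combinations (rows, number of sites in parentheses). Values of 0 and 100 left of the white line follow from the rule, and the row of 921 sites is open in 81% of cases in the day 0 control list.

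By their course in the controls, 914 of the 3229 sites were open in no control list, 1286 in 1 and 1029 in 2. The largest group with any control peak, 742 sites, was open in the day 0 and Thy1+ controls only. Its base is large: 51379 sites had that control pattern, so 1.44% (1.34 to 1.55) of them were repeatedly gained. The 914 came from 8146 sites that were open in no control list at all, or 11.2% (10.5 to 11.9). Other groups were 362 sites open in the Thy1+ control alone (5.52% of such sites), 327 in SSEA1+ alone (9.06%), 258 in GFP+ alone (2.23%) and 205 at day 0 alone (1.01%). By the rule, a site can be gained only in pairs whose control lacks it, so sites open in 3 or more control lists cannot be among them. A site open in no control list is by construction gained in at least 1 pair. The 11.2% and the 1.44% therefore have unlike bases. The shares of the single-list groups, each with the same number of pairs left, still differed.

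The day 10 and day 12 lists give a view that the rule did not use. Of the 3229 sites, 2656 (82.3%) were open in none of the 5, and 29 (0.898%) in all 5. For all sites these shares were 67.7% and 10.6%. In the day 10 control 328 were open (10.2%, 9.14 to 11.3), against 25.3% of all sites. Repeatedly gained sites were open in 3 to 7 of the 10 lists, and other sites with that span were open in none of the 5 in 82.0%, in all 5 in 1.01% and in the day 10 control in 10.3% (10.2 to 10.5). In the day 10 control the 2 shares therefore did not differ beyond counting error. With CTCF overexpression they were 8.61% (7.66 to 9.63) and 8.46% (8.33 to 8.60). With Smarca5 knockdown added they were 8.21% (7.28 to 9.21) and 9.80% (9.65 to 9.95), and these intervals do not overlap. Sites found without the Thy1+ pair were at 11.2% in that last list. In the day 12 control 191 of the repeatedly gained sites were open (5.92%, 5.13 to 6.79), against 15.7% of all sites and 6.11% of those with the same span. Sites gained in 2 pairs were at 11.3% in the day 10 control and 9.93% in the day 12 control. The day 12 value moved with the choice of pairs. The 790 sites gained in 3 or more pairs without SSEA1+ cells were at 9.37% (7.43 to 11.6) in the day 10 control and 2.28% (1.36 to 3.58) in the day 12 control. In the day 12 control, sites found without the SSEA1-Thy1- pair were at 3.16%, without the GFP+ pair at 3.35% and without the D0 pair at 6.06%. The 1437 found without the Thy1+ pair were at 12.9% and 10.6% in the 2 lists.

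**Figure D3:**
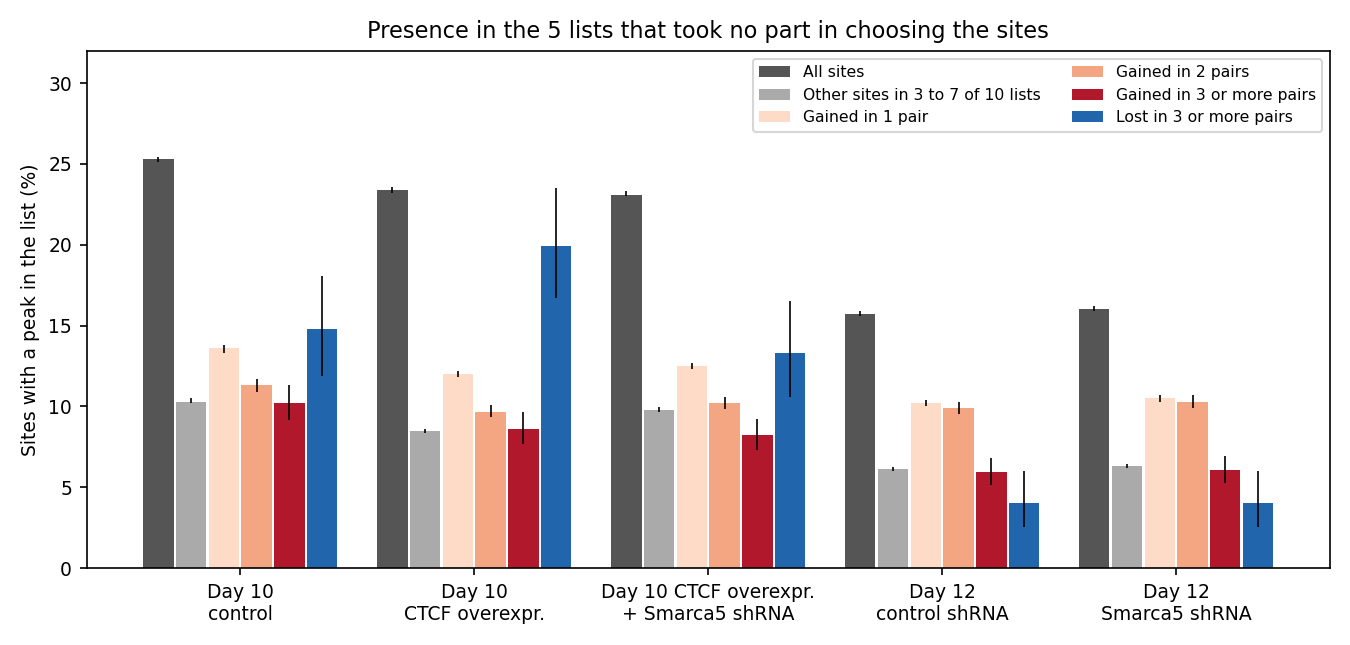
Percent of sites with a peak in the 5 lists that took no part in choosing them; bars are sets of sites and lines are 95% Clopper-Pearson intervals over sites. Repeatedly gained sites (dark red) are at 10.2% in the day 10 control and 5.92% in the day 12 control, close to other sites open in 3 to 7 of the 10 lists (light grey) and below all sites (dark grey).

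The course in the controls divided the sites in these lists. At day 12, 12.8% (10.8 to 15.1) of the 1013 sites open in the day 0 control were open in the control list, against 0.438% (0.119 to 1.12) of the 914 open in no control list. At day 10 these groups were at 11.1% (9.19 to 13.2) and 3.72% (2.59 to 5.16). Other sites open in no control list were at 0.595% in the day 12 control and 1.67% in the day 10 control. The low day 12 share is therefore not particular to the repeatedly gained sites, while their day 10 interval lies above the other sites. At day 12, other sites open in the day 0 and Thy1+ controls only were at 4.84%, and those open in the day 0 control alone at 0.308%. Among the 6 control courses with the most repeatedly gained sites, the 258 sites open in the GFP+ control alone had the highest share at day 10, 23.3% (18.2 to 28.9).

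Sites with the same control course were also set side by side by the number of pairs in which they were gained. For sites open in the day 0 and Thy1+ controls only, the share open at day 10 and day 12 was higher the more often they were gained. This comparison was chosen after the data were seen. At day 12, 16.4% (13.8 to 19.3) of the 742 repeatedly gained sites of this course were open in the control list. The share was 1.24% (1.09 to 1.40) of those gained in no pair, 5.93% (5.62 to 6.25) of those gained in 1 and 11.8% (11.1 to 12.6) of those gained in 2. In the day 10 control the same 4 sets were at 11.6% (9.38 to 14.1), 0.489%, 2.31% and 6.85% (6.29 to 7.45). All 742 were gained in the SSEA1+ pair. The 149 sites of the same course gained in SSEA1-Thy1- and GFP+ but not SSEA1+ cells were at 5.37% (2.35 to 10.3) at day 12 and 3.36% (1.10 to 7.66) at day 10.

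The other courses differed in how far they showed this order. For sites open in the Thy1+ control alone, 11.3% (8.25 to 15.1) of the repeatedly gained were open in the day 10 control, against 5.66% (4.58 to 6.91) of those gained in 2 pairs and 0.678% of those gained in none. For sites open in the day 0 control alone the shares were 5.85% (3.06 to 10.0), 2.32% (1.49 to 3.43) and 0.248%. For sites open in no control list they were 3.72% (2.59 to 5.16) and, for those gained in 2 pairs, 2.13% (1.57 to 2.83), with overlapping intervals. Sites of this course gained in 1 pair were at 1.47% (1.16 to 1.84), an interval below that of the repeatedly gained. For sites open in the GFP+ control alone, 23.3% and 22.7% were open after gain in 3 or more and in 2 pairs, against 12.2% (11.6 to 13.0) after none. Sites open in the SSEA1+ control alone showed no such order: the repeatedly gained were at 4.89% (2.82 to 7.82), and those gained in 2 pairs, 1 pair and none at 2.72%, 3.30% and 2.35%, with overlapping intervals. In the day 12 control, the intervals of the repeatedly gained sites and of those gained in 2 pairs overlapped in all 5 of these courses. The shares were 3.04% (1.53 to 5.37) against 1.18% (0.713 to 1.84) for Thy1+ alone, 1.95% against 1.55% for day 0 alone and 8.14% against 7.11% for GFP+ alone. They were 0.917% against 0.443% for SSEA1+ alone, and 0.438% against 0.727%, the lower value in the repeatedly gained, for sites open in no control list. Within a course, a site gained in more pairs is by construction open in more of the 10 lists, and the 2 cannot be told apart.

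**Figure D4:**
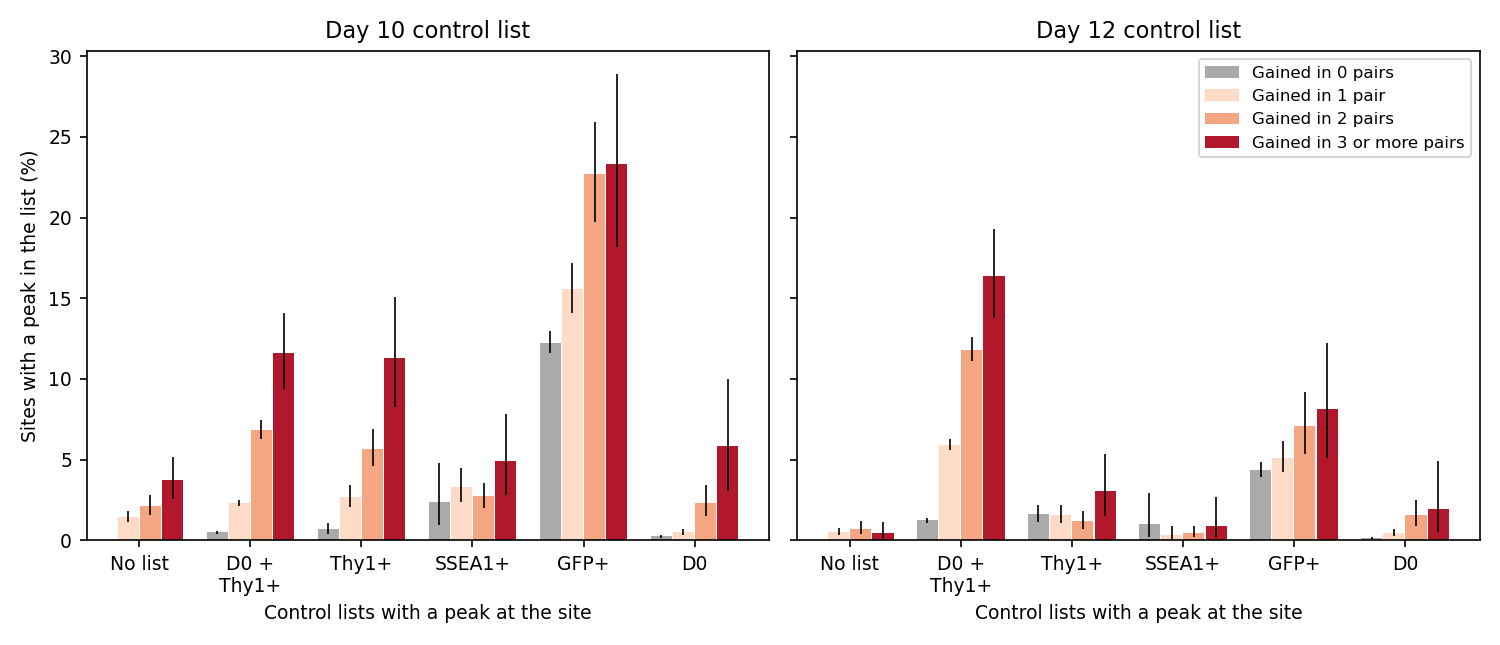
Percent of sites open in the day 10 control list (left) and the day 12 control list (right), by the control lists in which the site had a peak and, in colour, by the number of pairs in which it was gained; lines are 95% Clopper-Pearson intervals over sites. For sites open in the D0 and Thy1+ controls, the bars climb from 1.24% to 16.4% at day 12; no site open in no control list was gained in 0 pairs, so that bar is missing.

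CTCF overexpression was set against its control in unsorted day 10 cells, and the sites of the 2 rules differed in this comparison. The cause of that difference was not tested. Among the repeatedly gained sites, 72 were gained and 122 lost with overexpression (2.23% and 3.78% of the 3229; all sites 1.99% and 3.86%), and their number fell from 328 to 278, a ratio of 0.848. For all sites the ratio of the lists was 0.926 and for sites with the same span 0.819. Of the 328 open in the control, 37.2% (31.9 to 42.7) were lost, against 15.3% of all sites and 33.7% (32.9 to 34.4) of those with the same span. The last 2 intervals overlap. Without the SSEA1+ pair 37.8% (26.8 to 49.9) of 74 sites were lost. The repeatedly lost sites went the other way: their number rose from 81 to 109, a ratio of 1.35, with 38 gained and 10 lost. Of those 81, 12.3% (6.08 to 21.5) were lost, below the share of repeatedly gained sites with intervals that do not overlap. The interval of the repeatedly lost sites includes the 15.3% of all sites. No set with the same span of lists was made for them.

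With Smarca5 knockdown added to CTCF overexpression, 86 repeatedly gained sites were gained and 99 lost (2.66% and 3.07%; all sites 3.49% and 3.76%), and 265 were open, a ratio of 0.953. The ratio was 0.989 for all sites and 1.16 for sites with the same span. The net direction was not stable: the sites found without the Thy1+ pair had 50 gained and 46 lost (a ratio of 1.03), and those without the SSEA1-Thy1- pair 17 and 13. Of the 278 open before, 35.6% (30.0 to 41.6) were lost, against 26.4% (25.7 to 27.2) of sites with the same span, and the intervals do not overlap. For the sites found without the Thy1+ pair the share was 29.3% (22.3 to 37.1) of 157, and without the SSEA1+ pair 37.1% (25.2 to 50.3) of 62, both overlapping it. The repeatedly lost sites fell from 109 to 73. The loss with Smarca5 knockdown was uneven over courses: the 258 sites open in the GFP+ control alone went from 60 open with CTCF overexpression to 31, while the 742 early sites went from 81 to 85. Among other sites open in the GFP+ control alone the numbers were 1503 and 619, so the drop was not confined to repeatedly gained sites. Other sites open in the day 0 and Thy1+ controls only rose from 764 (1.51%) to 1216 (2.40%). The 742 repeatedly gained sites of that course were at 10.9% (8.76 to 13.4) and 11.5% (9.25 to 14.0). Against the day 10 control itself, CTCF overexpression with Smarca5 knockdown gained 54 and lost 117 (1.67% and 3.62%; all sites 1.98% and 4.10%). The day 10 comparisons share lists.

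In unsorted day 12 cells, Smarca5 shRNA gained 28 and lost 23 of the sites (0.867% and 0.712%; all sites 0.994% and 0.704%). The net direction turned with the pairs used: 2 were gained and 9 lost among the sites found without the SSEA1+ pair, 3 and 11 without the GFP+ pair, and 5 and 5 without the SSEA1-Thy1- pair. Of 191 open in the control, 12.0% (7.79 to 17.5) were lost, against 4.47% of all sites and 8.87% (8.30 to 9.46) of sites with the same span. The interval includes the last value.

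**Figure D5:**
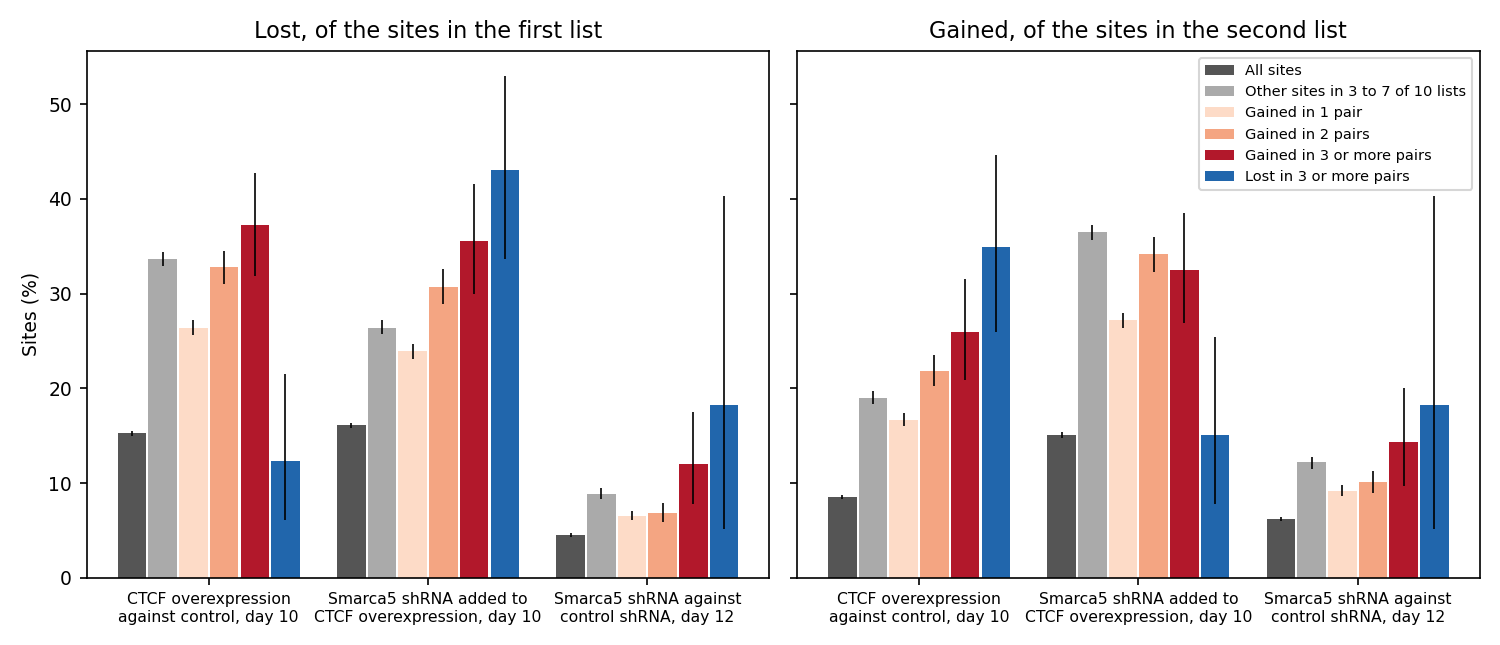
Left, percent of the sites open in the first list that were lost in the second; right, percent of the sites open in the second list that were absent from the first, for 3 comparisons and 6 sets of sites. Lines are 95% Clopper-Pearson intervals; with CTCF overexpression, 37.2% of the repeatedly gained sites (dark red) and 12.3% of the repeatedly lost sites (blue) were lost.

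The sites lay near a gene end less often than all sites, but more often than other sites with the same span, beyond counting error. Within 1 kb of either end of a protein-coding gene lay 5.30% (4.55 to 6.13), against 8.55% of all sites, 3.61% (3.51 to 3.70) of other sites with the same span and 8.41% (6.22 to 11.1) of the repeatedly lost. The gene table has no strand, so an end may be either end. In gene bodies lay 52.3%, against 52.7% of all sites. The median distance to the nearest annotated start was 28391 bp, close to the 28570 bp of all sites, against 35005 bp for other sites with the same span and 18890 bp for the repeatedly lost. Sites open in no control list were farther, 38774 bp. Within 50 kb of a repeatedly lost site lay 3.19% (2.61 to 3.86), against 3.24% of all sites. Gains and losses were thus not found together more often than sites at large. For the 156 sites gained in 4 or 5 pairs the share was 6.41% (3.12 to 11.5), an interval that includes 3.24%.

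The sites were scattered. The median gap to the next was 400633 bp. They fell into 2930 windows of 100 kb, of which 2658 held 1 site and 4 held 4, the most in any window. These 4 were around Slc30a7 and Extl2 on chromosome 3, Spata21, Szrd1 and Fbxo42 on chromosome 4, Rbbp6 and Tnrc6a on chromosome 7, and Fcsk, St3gal2 and Ddx19a on chromosome 8. The 4 windows held 17, 28, 17 and 22 sites of all kinds.

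Both sites gained in every pair (0.000748% of all sites) lay in or near transcription factor genes. The share of other sites that lie near such genes was not counted, so no theme is drawn from these. The first (chr2:45098042-45098441) is in the body of Zeb2, a zinc finger repressor that drives the mesenchymal state and represses Cdh1, 12035 bp downstream of its annotated start. The other (chr12:56528005-56528404) is 3530 bp outside Nkx2-1, a homeobox factor of lung, thyroid and forebrain. Each was open in all 5 lists with CTCF shRNA, in none of the 5 controls and in none of the day 10 and day 12 lists. Only these 2 sites reach that number, and their choice is the rule itself.

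Zeb2 held 2 further repeatedly gained sites among 36 sites in or within 10 kb. The site at chr2:44977999-44978398, 5113 bp outside the gene, was gained in D0, Thy1+, SSEA1-Thy1- and GFP+ cells and was open in no control. The site at chr2:45049271-45049670, in the body, was gained in SSEA1-Thy1-, SSEA1+ and GFP+ cells, was open in the day 0 and Thy1+ controls, and was open in both day 12 lists. The 3 sites therefore had different courses.

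Of the 35 fibroblast genes listed, 8 had a repeatedly gained site in or within 10 kb, against 2041 of 21887 protein-coding genes (9.33%). Counted over sites, 10 of the 515 near these genes were repeatedly gained (1.94%, 0.935 to 3.54), against 1.22% of sites near any protein-coding gene, so the interval includes the background. Besides Zeb2 these were the mesenchymal homeobox genes Prrx1, Prrx2 and Meox2, the collagen genes Col5a1 and Col5a2, the protease gene Fap, and Osr1, a zinc finger factor of the mesoderm. Prrx2 had a site gained in SSEA1-Thy1-, SSEA1+ and GFP+ cells that was open in the day 0 and Thy1+ controls (chr2:30851104-30851503, in the body). Prrx1 and Osr1 each had one gained in D0, SSEA1+ and GFP+ cells that was open in the Thy1+ and SSEA1-Thy1- controls. The Fap and Meox2 sites were open in no control and were gained in Thy1+, SSEA1-Thy1- and SSEA1+ cells. The Col5a1 site was gained in those same pairs and was open in the day 0 control.

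Pluripotency genes had 2 of 30 with such a site, and 2 of 258 sites (0.775%, 0.0940 to 2.77). The site at Tdgf1 (chr9:110946576-110946975), which encodes the Nodal coreceptor Cripto, had its centre at -618 bp from the annotated start, on the upstream side. It was gained at D0 and in Thy1+ and SSEA1-Thy1- cells, was open in the SSEA1+ and GFP+ controls, and was open in all 5 day 10 and day 12 lists. It was thus listed with CTCF shRNA in populations whose controls lacked it. Whether it opened earlier was not tested, since some populations share sampling days and the depth of the lists is unknown. The site in Nr5a2, an orphan nuclear receptor of early embryos, was gained in Thy1+, SSEA1-Thy1- and GFP+ cells, was open in the SSEA1+ control, and was absent from the day 10 and day 12 lists.

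The other lists are read against the same backgrounds, 9.33% of protein-coding genes and 1.22% of sites near them. Counted over sites, the interval of each list and family in this paragraph includes 1.22%. Neural markers had 4 of 12 genes (33.3%; 4 of 120 sites, 3.33%, 0.916 to 8.31). These were Dcx, a microtubule protein of migrating neurons, whose site was gained in 4 pairs, Map2, Gfap and Olig2. Epithelial genes had 1 of 20 (Krt8), and keratinocyte genes 0 of 8. AP-1 genes and partners had 2 of 16 (Runx2, whose site was open in the day 0 and Thy1+ controls, and Tead3). Imprinted genes had 2 of 23 (Igf2r and Impact). Cell cycle arrest had 1 of 12 (Mdm2), chromatin architecture 1 of 17 (Zfp143), and endothelial (Vwf), endoderm and trophoblast (Tfap2c), and muscle and heart (Myf5) markers each 1 of 10. Housekeeping genes had 1 of 12 (Pgk1). Of gene families, Hox genes had 2 of 39, keratins 4 of 53 and Zfp genes 23 of 397. Olfactory receptors had 6 of 1110 (0.541%) and vomeronasal receptors 1 of 353 (0.283%), both far below 9.33% of genes. Over the few sites near them the shares were 0.778% (0.253 to 1.81) and 0.585% (0.0148 to 3.22). In all, 26 of 224 listed genes had one (11.6%).

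Genes with the most sites were long. A repeatedly gained site lay in or within 10 kb of 2041 genes, and 15 genes had 4, the most: Szrd1, St3gal2, Akap13, Apbb2, Rere, Bach2, Tmtc2, Dock4, Ttc28, Pakap, Slit3, Ptprg, Tenm3, Magi2 and Macrod2. Their median length was 401 kb, against 61.6 kb for genes with any such site and 17.2 kb for all genes. The genes were picked by this count, and their numbers of sites of all kinds differed widely. The repeatedly gained share of those sites ran from 1.77% at Macrod2 (4 of 226) to 21.1% at Szrd1 and St3gal2. Near any protein-coding gene it was 1.22%. Within this group the courses differed by gene. All 4 sites of Magi2, a synaptic scaffold gene, were gained in Thy1+, SSEA1-Thy1- and SSEA1+ cells and were open in no control. At Slit3, which encodes a guidance ligand of Robo receptors, 3 of the 4 were gained in the same pairs. All 4 sites of Pakap were gained in SSEA1-Thy1-, SSEA1+ and GFP+ cells, and 3 of them were open in the day 0 control. Dock4, a Rac activator, had 3 sites of that second kind among 4. Szrd1 (26.8 kb) and St3gal2 (54.3 kb), the shortest of the 15, each had 4 among 19 sites. The next genes by the rule, with 3 sites each, were Extl2, Spata21, Rara, Ak7 and Capzb.

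Of the 154 sites gained in 4 pairs, 9 were open in 3 of the 5 independent lists, the most of any. They are named because of that number. Of the 156 sites gained in 4 or 5 pairs, 5.77% (2.67 to 10.7) were open in 3 of these lists. Among all sites, 8.26% were open in 3 of them and 10.6% in all 5. Of the 9 sites, 8 lie in or nearest to Pam, Bpnt2, Slc25a33, Tbc1d1, Kcmf1, Morc2a, Ywhaz and Nol4. By the rule, a site gained in 4 pairs can be open in no control but that of the remaining pair. The Slc25a33, Tbc1d1 and Ywhaz sites shared a course: each was gained in all pairs except Thy1+, whose control was open, and was open in all 3 day 10 lists. The Kcmf1 site was gained in all pairs but D0 and was open in the day 10 control and both day 12 lists. Of the next 11 sites by the rule, each open in 2 of the independent lists, 5 were open in the GFP+ control and in no other control. These lie in or nearest to Gm5148, Mrfap1, Arhgap17, Osbp2 and Rai14, and by the rule each was therefore gained in D0, Thy1+, SSEA1-Thy1- and SSEA1+ cells. The remaining 6 lie in or nearest to Rap1a, Rnf185 and Nsmce2 (open in the Thy1+ control), Mta3 (open in the SSEA1+ control), and Gm5294 and Gm7429 (open in no control).

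Sites just inside and just outside the rule are set side by side here. In the day 10 control, 9.86% (8.83 to 11.0) of sites gained in 3 pairs and 11.3% (10.9 to 11.7) of sites gained in 2 were open. In the day 12 control the shares were 6.05% (5.24 to 6.95) and 9.93% (9.56 to 10.3). In the day 0 control list, which the rule used, the shares were 32.3% and 49.8%.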

How the data were processed

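ATAC-seq peak lists of 15 groups of mouse cells (32 samples) were used. The tools named per the submitters' processing notes are MACS2, Bowtie2, Picard, SAMtools, cutadapt, Trim Galore and FastQC, with mm10 and GRCm38. The peak threshold, any shift of reads and how samples were pooled are not stated in those sources. The deposited lists hold 400 bp intervals, and the deposited score is 0 throughout, so peaks could not be ranked and depth is unknown. Intervals of the 10 day 0 and sorted lists were merged where they overlapped (Python 3.11.15, numpy 2.4.6, pandas 2.3.3), and the functions were tested on simulated intervals. Shares have exact Clopper-Pearson 95% intervals over sites (scipy 1.17.1). No p-value was computed, since each group has 1 list. Gene positions and promoters are RefSeq, GRCm38.p6. The promoter windows of chromosome 18 were not used here, and site sequences were not analysed. The comparison with other sites open in 3 to 7 lists, and that by control course, were chosen after seeing the data.

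The sites and gene lists were chosen with earlier results of these data known. Named are the sites gained in 5 pairs and 20 of those gained in 4 (most independent lists first), all list genes with a site within 10 kb, the 20 protein-coding genes with most sites, genes whose end a site gained in 4 or more pairs covers, and windows of 100 kb with most sites, of which the 4 that hold 4 are given. A site and a marker list that fall under this rule are not reported here. Alternatives were another overlap, merging rule, margin around control peaks, width limit, gene window, and each pair left out.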

Additional observations from a re-analysis of the deposited data

How the results depend on the processing

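No paired analysis was possible because each group has 1 list. For the same reason no replicate could be left out, and each pair was left out in its place. Of 187 values recomputed, 131 moved by less than their counting interval, or by less than 1.5 times for counts. That total includes the width limit, which could change nothing because no repeatedly gained site was wider than 800 bp. Leaving out the D0 pair moved 2 of 14 values, and leaving out any other pair moved 11 of 14. Leaving out a pair gave 602 to 2606 sites. It gave 9.06% to 12.9% open in the day 10 control, 7.14% to 10.9% with CTCF overexpression, 7.22% to 11.2% with Smarca5 knockdown added, 2.28% to 10.6% in the day 12 control and 1.39% to 11.3% with Smarca5 shRNA. Sites gained and lost ranged from 11 to 54 and 28 to 91 with CTCF overexpression, 17 to 68 and 13 to 73 with Smarca5 knockdown added, and 2 to 25 and 5 to 16 at day 12. Shares within 1 kb of a gene end ranged from 4.57% to 6.81% and in gene bodies from 50.6% to 53.8%. With an overlap of at least 200 bp the shares open fell to 7.74%, 6.60% and 6.13% in the day 10 lists and 4.89% and 5.17% in the day 12 lists. By construction, a gene-end window of 2.5 kb gave 10.9%, one of 0 bp 0.991%, annotated starts within 1 kb 3.87% (added after seeing the data), genes of every kind 61.4% in bodies, and a window of 50 kb 50 list genes with a site. Depth behind the lists is unknown, so a site called gained may lie under the peak threshold of the control.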
